A study of Drosophila melanogaster with 8 samples.

Results

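The comparison was the difference between 2 responses to the same ligand. These were the response of Drosophila S2R+ cells and that of an S2R+ line with a disrupted Stat92E gene. The question behind it is which responses depend on Stat92E. Genotype and line coincide in this design, so loss of Stat92E cannot be told apart from other differences between the lines. For each gene the log2 change from control media to upd in the mutant line was subtracted from the same change in S2R+ cells. All 8 of the 8 libraries entered, 4 from the mutant line and 4 from S2R+ cells. S2R+ is an adherent, macrophage-like line derived from embryos. The groups were the STAT92E mutant, in which the gene was disrupted by CRISPR, with upd for 1 hour; the same mutant with control media for 1 hour; wild type S2R+ cells with upd for 1 hour; and wild type S2R+ cells with control media for 1 hour. Each group held 2 libraries of poly-A selected RNA, numbered replicate 1 and replicate 2. Whether the mutant line is 1 clone, what lesion it carries, and the source and dose of upd are not stated in the labels. One label field writes the disrupted gene as STAT492E and the others as STAT92E. Nothing says that the 2 libraries of a group came from separate cultures; the p-values therefore reflect only library-to-library spread, possibly technical.

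Unpaired (upd) is a secreted cytokine that binds the receptor Domeless. The receptor-bound kinase Hopscotch then phosphorylates the transcription factor STAT92E, which enters the nucleus and binds its target genes. Socs36E, a suppressor of cytokine signalling, is a direct target in many fly tissues and dampens the pathway that induced it. In fly blood cells the pathway is known for roles in proliferation, differentiation and immune responses.

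Total counts were 21600752 and 22948539 in mutant libraries with upd, 20132421 and 15146225 in mutant libraries with control media, 9142736 and 30352948 in S2R+ libraries with upd, and 8285533 and 28465332 in S2R+ libraries with control media. Stat92E transcripts (3R:20535323-20552311, dm6) had 111 and 121 CPM (counts scaled to the normalised library size) in the mutant with upd, 103 and 114 CPM in the mutant with control media, 157 and 160 CPM in S2R+ cells with upd, and 161 and 178 CPM in S2R+ cells with control media. Every mutant library was below every S2R+ library, but the transcript was present in all 8, and a whole-gene count does not test a small lesion. Its response did not pass the test of the difference (−0.20 log2, 95% interval −0.47 to 0.07, adjusted p = 0.696). All 10 of the plasmatocyte markers listed had a count in some library and 5 averaged over 5 CPM. Their summed level was between 500 and 532 CPM in the mutant with upd and 547 and 551 CPM in the mutant with control media, and between 685 and 784 CPM in S2R+ cells with upd and 579 and 710 CPM in S2R+ cells with control media. Of the defining markers, Hml was between 0.385 and 1.29 CPM in mutant libraries and between 1.64 and 11.2 CPM in S2R+ libraries, and NimC1, eater and He were at or below 0.506 CPM in all 8. The summed germline markers were between 14 and 29.3 CPM in mutant libraries and between 50.7 and 57.8 CPM in S2R+ libraries. The epithelium markers summed to between 31.3 and 33.4 CPM in the mutant and between 49.6 and 61.3 CPM in S2R+ cells. Each gap came from 1 member. These were bam (1.05 to 5.82 CPM in the mutant, 40.0 to 42.8 in S2R+ cells) and sdt (7.81 to 9.43 and 37.2 to 44.3). The germline marker osk (11.9 to 23.1 and 9.38 to 14.8) and the epithelium markers crb (8.9 to 11.5 and 3.17 to 6.2) and shg (10.9 to 14.0 and 8.29 to 10.9) were not lower in the mutant. Muscle markers were between 1.45 and 4.41 CPM in all groups. The part of these markers in the differences was not tested.

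The difference of the responses passed an adjusted p of 0.05 for 33 of 8126 genes tested, which is 0.406%. It was above 0, meaning a more positive response in S2R+ cells than in the mutant, for 23 genes (0.283%) and below 0 for 10 genes (0.123%). In all 33 genes the 2 same-number responses of one line lay entirely on one side of those of the other. Over all genes tested, such separation occurred with S2R+ cells above the mutant for 20.2% and below it for 19.4%, so separation alone was common. Of the 33 genes, 19 overlap another annotated gene, among them Vrp1 (mei-S332), CG15097 (Phb2), ush (cbt), ex (crq) and mt:ATPase8 (mt:ATPase6), and reads of such pairs may be shared. Within the lines, upd raised 313 genes (3.85%) and lowered 154 (1.9%) in the mutant, 467 in all (5.75%). It raised 99 (1.22%) and lowered 12 (0.148%) in S2R+ cells, 111 in all (1.37%).

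These counts rest on a term for replicate number within each line. With that term the median biological coefficient of variation was 8.73%, and 2 residual degrees of freedom remained among the libraries. Without the term, edgeR's quasi-likelihood test called 0 genes for the difference, with 88 at an unadjusted p under 0.05. With 1 replicate term shared by both lines it called 0, with 181 at an unadjusted p under 0.05. The labels do not say what a replicate number stands for. When each library was left out in turn, 6 of the 33 genes passed every time, namely Vrp1, mgl, Socs36E, CG15097, fray and RpL36A. Of these 6, Vrp1, mgl, fray and RpL36A also passed under the 8 alternatives that kept the replicate terms. Socs36E did not pass with DESeq2 (adjusted p = 0.135) or edgeR's robust prior (0.0701), and CG15097 did not pass with DESeq2 (0.467), the robust prior (0.216) or limma after quantile normalization (0.0707). The other 27 lost the call in at least 1 such fit, most often without an S2R+ library of replicate 2, where 7 of the 33 (control media) or 6 (upd) still passed. None of the 33 changed sign. With a library left out this could hardly have come out otherwise, since the pairs of the lines did not overlap. Without a mutant library of replicate 2 the calls numbered 255 above and 282 below 0 (control media) or 277 and 308 (upd). The 467 mutant responses numbered 57 or 61 without a mutant library of replicate 1 and 1356 or 1408 without one of replicate 2. The 111 S2R+ responses numbered between 22 and 60 without 1 S2R+ library and between 319 and 348 without 1 mutant library. Which line had more calls thus turned round without a mutant library of replicate 1, and no test compared the counts. With a replicate term within each line, leaving out 1 library leaves that line 1 informative pair. Leaving out the upd or the control library of a number therefore removes the same pair. The residual spread then comes from the other line alone, so a changed count is not an effect of the omitted library alone.

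**Figure D1:**
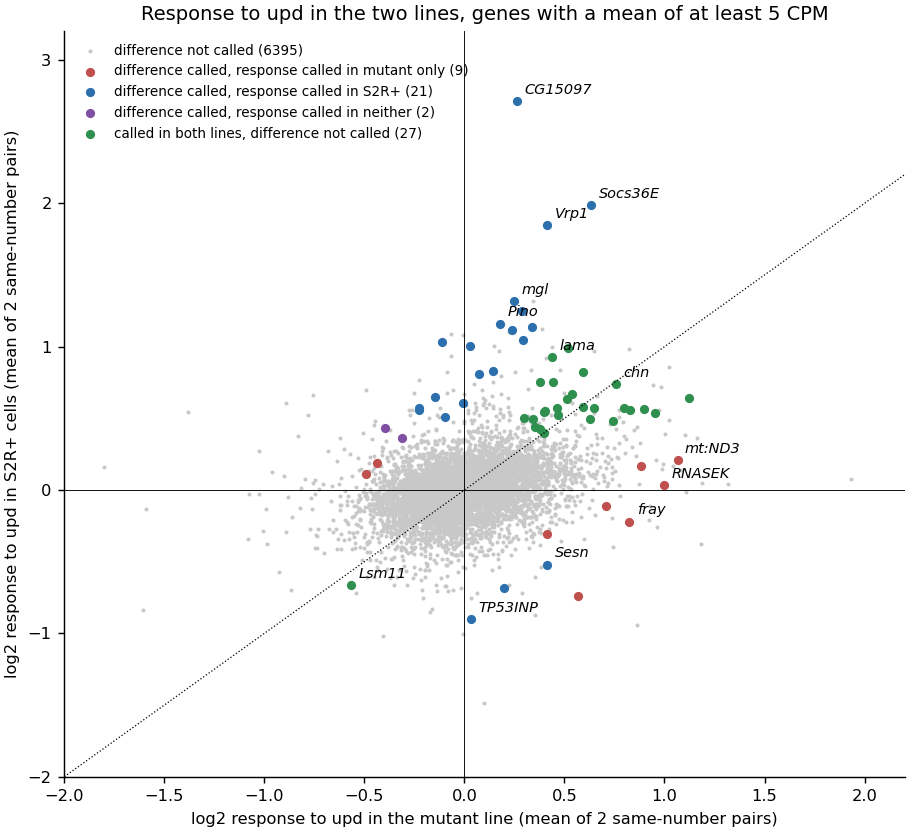
Log2 response to upd in S2R+ cells (y axis) against that in the mutant line (x axis), each the mean of 2 same-number pairs, for 6454 genes averaging at least 5 CPM; the dotted line marks equal responses. Blue points, called in S2R+ cells with a called difference, lie mostly above the dotted line and near 0 on the x axis, while red points, called in the mutant line only, lie mostly to the right, and green points, called in both lines without a called difference, lie around the dotted line.

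Of the 111 genes called in S2R+ cells, 22 had a called difference, 27 were called in the same direction in the mutant without a called difference, and 62 were called in S2R+ cells alone without a called difference. Among the 99 that rose in S2R+ cells, the fitted mutant response was above 0 for 91. The median response of the 99 genes was 0.27 log2 in the mutant and 0.61 log2 in S2R+ cells. The mutant's log2 response was a median of 32.7% of that of S2R+ cells, and for 38 of the 99 it was more than 50% of it. Since these genes were selected on the S2R+ response, their S2R+ median is a description. The mutant responses come from other libraries. Their median was 0.26 log2 in each of the 2 mutant pairs.

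Socs36E, the feedback inhibitor of the pathway (2L:18138675-18152417), rose in both lines but by less in the mutant. Its level was 39.8 and 98.0 CPM in the mutant with upd, against 32.4 and 49.9 CPM in the mutant with control media. In S2R+ cells it was 927 and 1010 CPM with upd, against 287 and 208 CPM with control media. Each upd library was above both control libraries in S2R+ cells, whereas in the mutant replicate 1 with upd was below replicate 2 with control media. The fitted change was 1.57-fold in the mutant (0.65 ± 0.14 log2, SE, adjusted p = 0.0079) and 3.97-fold in S2R+ cells (1.99 ± 0.13 log2, adjusted p = 1.46e-09). The difference was 1.34 ± 0.19 log2 (95% interval 0.95 to 1.73, adjusted p = 0.000749). In control media the mutant's level was 0.166 times that of S2R+ cells. The mutant call was lost without either mutant library of replicate 2, where the response was as low as 0.29 log2 and the adjusted p reached 0.106, and it did not pass with DESeq2 (adjusted p = 0.215) or the robust prior (0.064).

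Vrp1, the fly verprolin, which binds WASp and regulates actin branching (2R:22106107-22122562), had the lowest p for the difference. The gene held 26.2 and 33.4 CPM in the mutant with upd, against 21.4 and 23 CPM in the mutant with control media. S2R+ cells held 233 and 296 CPM with upd, against 65.4 and 81.1 CPM with control media. The 2 conditions did not overlap in either line. The change was 0.42 ± 0.11 log2 in the mutant (adjusted p = 0.0296) and 1.85 ± 0.10 log2 in S2R+ cells (adjusted p = 8.3e-11), with a difference of 1.44 ± 0.15 log2 (1.13 to 1.75, adjusted p = 2.02e-05). As with Socs36E, the mutant call did not hold without either mutant library of replicate 2 (adjusted p up to 0.176), nor with DESeq2 (0.0552). Vrp1 was the 1 gene of 24 listed actin regulators with a called difference, against 0.406% of all genes tested. The median difference of that list was 0.00.

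**Figure D2:**
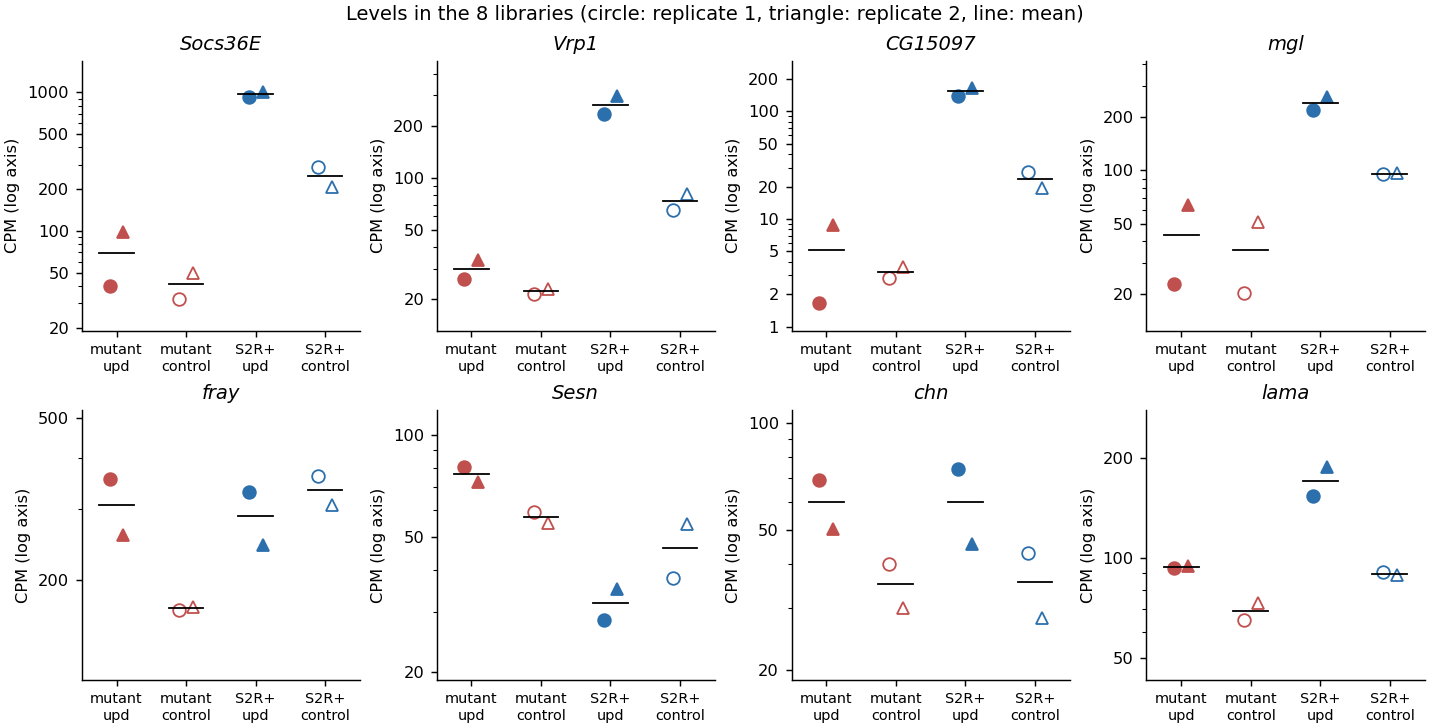
Level in CPM on a log axis of 8 genes in each library, with the mutant line in red and S2R+ cells in blue, filled symbols for upd, open symbols for control media, circles for replicate 1, triangles for replicate 2 and lines for means of 2. Socs36E, Vrp1, CG15097 and mgl stepped up with upd mainly in S2R+ cells, fray and Sesn stepped up in the mutant, and chn and lama stepped up in both.

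The other 17 genes that rose in S2R+ cells with a called difference had no called response in the mutant. The steepest among those averaging at least 5 CPM was CG15097, a gene known here only by its number (2R:18822188-18829699). It had 1.66 and 8.77 CPM in the mutant with upd and 2.82 and 3.60 CPM in the mutant with control media, against 139 and 165 CPM in S2R+ cells with upd and 27.2 and 19.4 CPM in S2R+ cells with control media. The 2 mutant pairs pointed in opposite directions, at −0.73 and 1.26 log2, and the 2 S2R+ pairs were 2.35 and 3.08 log2. The S2R+ rise was 6.79-fold and the difference was 2.23 ± 0.37 log2 (1.47 to 2.99, adjusted p = 0.00474). CG15673 (2R:21608393-21613071) had a larger difference, 3.35 ± 0.58 log2 (adjusted p = 0.00517), at a lower level. Its values were 3.02 and 3.21 CPM in the mutant with upd, 4.11 and 2.13 CPM in the mutant with control media, 7.39 and 6.12 CPM in S2R+ cells with upd, and 1.14 and 0.427 CPM in S2R+ cells with control media. The 2 control libraries of S2R+ cells held 9 and 13 counts of it, so the fold rests on few reads.

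mgl, the fly megalin, which takes up lipoproteins and other ligands by endocytosis (X:9358496-9500129), had 22.9 and 63.9 CPM in the mutant with upd, against 20.2 and 51.2 CPM in the mutant with control media. It had 219 and 261 CPM in S2R+ cells with upd, against 95.8 and 96.4 CPM in S2R+ cells with control media. Mutant levels followed the replicate number more than the ligand, while the S2R+ conditions did not overlap. The mutant response was 0.26 ± 0.11 log2 (adjusted p = 0.161) and the S2R+ response 1.32 ± 0.10 log2 (adjusted p = 1.55e-08), with a difference of 1.06 ± 0.15 log2 (0.76 to 1.37, adjusted p = 0.000749). foi, a zinc transporter of the ZIP family (3L:8525244-8534503), had 200 and 194 CPM in the mutant with upd, 156 and 165 CPM in the mutant with control media, 972 and 795 CPM in S2R+ cells with upd, and 505 and 358 CPM in S2R+ cells with control media. Its upd libraries were above its control libraries in both lines, and the mutant response of 0.30 ± 0.09 log2 did not pass (adjusted p = 0.0594). The difference of foi was 0.75 ± 0.13 log2. CD98hc, the heavy chain of CD98 amino acid transporters, had a difference of 0.68 ± 0.12 log2, and path, a proton-coupled amino acid transporter, one of 0.76 ± 0.16 log2. CD98hc gave 0.15 log2 in the mutant and 0.83 log2 in S2R+ cells, and path gave 0.06 log2 in the mutant and 0.82 log2 in S2R+ cells, where each passed in S2R+ cells alone.

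Ptpmeg2, a protein tyrosine phosphatase (X:9626294-9659145), had 118 and 147 CPM in the mutant with upd, 110 and 113 CPM in the mutant with control media, 297 and 318 CPM in S2R+ cells with upd, and 157 and 128 CPM in S2R+ cells with control media. Its mutant response was 0.24 ± 0.10 log2 (adjusted p = 0.17) and its difference 0.88 ± 0.15 log2 (adjusted p = 0.00474). loco, a regulator of G-protein signalling (3R:22619968-22639387), changed by 0.34 ± 0.10 log2 in the mutant (adjusted p = 0.0558) and by 1.15 ± 0.10 log2 in S2R+ cells, with a difference of 0.81 ± 0.14 log2. ush, a FOG-family cofactor of GATA factors that acts in blood cell development (2L:476220-540560) and is on the plasmatocyte marker list, had lower fitted values with upd in the mutant. It held 63.5 and 73.0 CPM in the mutant with upd, 79.7 and 79.2 CPM in the mutant with control media, 262 and 202 CPM in S2R+ cells with upd, and 186 and 129 CPM in S2R+ cells with control media. Its mutant response of −0.22 ± 0.10 log2 did not pass (adjusted p = 0.183), and the difference was 0.80 ± 0.14 log2. ex, the Hippo pathway component Expanded, gave −0.14 log2 in the mutant without passing and 0.66 log2 in S2R+ cells. It was the 1 gene with a called difference among 13 listed Hippo genes, pathway components as well as targets, against 0.406% of all genes tested.

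The remaining genes of this direction had differences between 0.60 and 1.09 log2. Pino (0.99), CG6204 (0.98), CG32700 (1.09), CG32512 (0.95), Swip-1 (0.79), promL, a prominin-like gene (0.62), and Efa6, an exchange factor for Arf6 (0.61), rose in S2R+ cells only. CG32700 (X:9502826-9550838) split by replicate number in the mutant, with 9.53 and 87.6 CPM with upd and 12.3 and 78.9 CPM with control media, against 275 and 329 CPM in S2R+ cells with upd and 183 and 118 CPM in S2R+ cells with control media. CG6204 (3R:24193832-24196880) was level in the mutant, at 50.6 and 50 CPM with upd and 46.1 and 52.9 CPM with control media, and had 76.6 and 69.5 CPM in S2R+ cells with upd against 38.1 and 34.8 CPM in S2R+ cells with control media. Both its mutant and its S2R+ pairs therefore repeated closely. A further 4 genes came to this side without a called S2R+ response. Nup358, a nuclear pore protein (0.60), and GABPI (0.63) fell in the mutant, by 0.49 and 0.43 log2. cher, the fly filamin (0.84), and coil, the fly coilin (0.69), passed in neither line, with mutant responses of −0.40 and −0.31 log2 and S2R+ responses of 0.44 and 0.37 log2.

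The level in control media differed between the lines for many of these genes. Of the 19 genes that rose in S2R+ cells with a larger response there, 12 had both mutant control libraries below both S2R+ control libraries. For 18 both mutant upd libraries were below both S2R+ upd libraries. Among all 99 genes that rose in S2R+ cells these counts were 59 and 77. The share over all genes tested was not counted, so neither count can be called particular to these genes. Choosing genes by a larger S2R+ response also favours the second count. The median response of the 19 genes was 0.10 and 0.15 log2 in the 2 mutant pairs, and 0.92 and 1.22 log2 in the 2 S2R+ pairs. The same choice of genes favours low mutant and high S2R+ medians, so these medians are descriptions only. Whether the lower starting level bears on the size of the response was not tested.

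**Figure D3:**
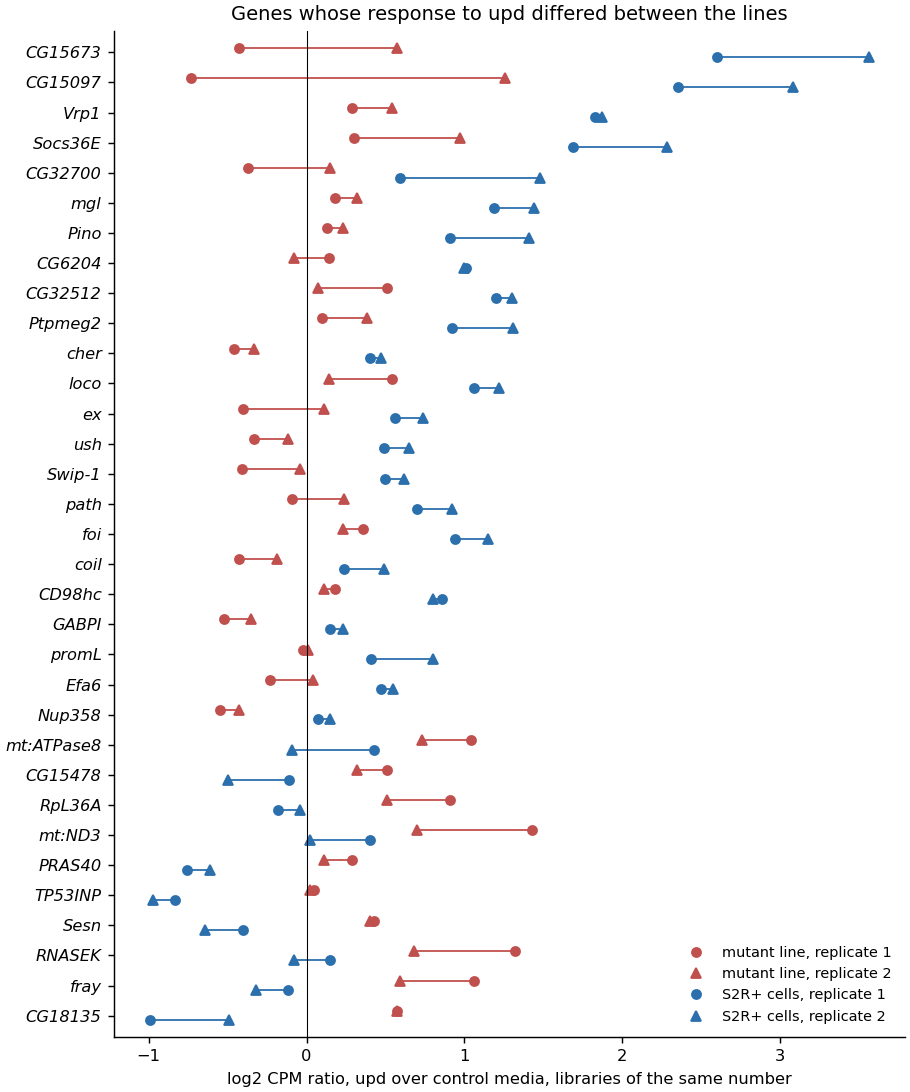
Log2 ratio of upd over control media for libraries of the same number (x axis) in the 33 genes with a called difference, ordered by that difference, with the mutant line in red and S2R+ cells in blue, circles for replicate 1, triangles for replicate 2 and a line joining the 2. In each gene the 2 lines do not overlap, and the widest gap between pairs of 1 line is that of CG15097 in the mutant, from −0.73 to 1.26.

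Of the 10 genes with a difference below 0, 3 are on the insulin and TOR list, fray, Sesn and PRAS40. That list was drawn up with earlier results of these data known, so its count is no independent evidence. fray, a kinase of the SPAK and OSR1 type that controls ion cotransporters in flies (3R:18573091-18589459), held 354 and 258 CPM in the mutant with upd, against 169 and 172 CPM in the mutant with control media. S2R+ cells held 330 and 244 CPM with upd, against 360 and 306 CPM with control media. The mutant conditions did not overlap and the S2R+ conditions did. fray rose by 0.83 ± 0.10 log2 in the mutant (adjusted p = 4.7e-05), gave −0.23 ± 0.10 log2 in S2R+ cells (adjusted p = 0.48), and differed by −1.05 ± 0.15 log2 (−1.36 to −0.75, adjusted p = 0.000749). Sesn, the fly sestrin, a stress-induced inhibitor of TORC1 (2R:23713900-23734846), was the 1 gene called in opposite directions in the 2 lines. It had 80.2 and 72.7 CPM in the mutant with upd, 59.4 and 54.9 CPM in the mutant with control media, 28.6 and 35.2 CPM in S2R+ cells with upd, and 37.8 and 54.8 CPM in S2R+ cells with control media. The groups did not overlap within either line. Sesn rose by 0.42 ± 0.11 log2 in the mutant (adjusted p = 0.0281), fell by 0.54 ± 0.12 log2 in S2R+ cells (adjusted p = 0.0166), and differed by −0.96 ± 0.16 log2 (−1.30 to −0.62, adjusted p = 0.00517). Its call in S2R+ cells was lost without any 1 of the 4 S2R+ libraries (adjusted p up to 1), and its call in the mutant without either mutant library of replicate 1 (up to 0.231). With DESeq2 neither call passed (0.0743 in the mutant and 0.061 in S2R+ cells), although the difference did (0.00309). PRAS40, an inhibitory subunit of TORC1, had 34.1 and 29.9 CPM in the mutant with upd, 27.9 and 27.7 CPM in the mutant with control media, 25.2 and 34.2 CPM in S2R+ cells with upd, and 42.6 and 52.4 CPM in S2R+ cells with control media. PRAS40 gave 0.20 ± 0.13 log2 in the mutant without passing and fell by 0.68 ± 0.13 log2 in S2R+ cells.

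The insulin and TOR list includes fray and was drawn up with earlier results known, so its counts are no independent evidence of a pathway response. It had 21 genes tested. By edgeR 3 were called below 0, against 0.123% of all genes tested, and 0 were called above 0. Its median difference was −0.13, beside 0.00 over all genes tested, and it was −0.07 or −0.06 without a mutant library of replicate 1. In the mutant 7 of the 21 rose, against 3.85% of all genes, and 0 fell. In S2R+ cells 3 rose, against 1.22% of all genes, and 2 fell, against 0.148%. TP53INP, whose mammalian counterpart acts in autophagy and the p53 response, also fell in S2R+ cells alone, with 8.82 and 15.8 CPM in the mutant with upd, 8.51 and 15.6 CPM in the mutant with control media, 21.8 and 24.2 CPM in S2R+ cells with upd, and 38.9 and 47.6 CPM in S2R+ cells with control media. The mutant ratio of TP53INP was close to 0 in both pairs (0.05 and 0.02 log2), and the difference was −0.95 ± 0.21 log2 (adjusted p = 0.0431).

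The other genes below 0 were called as rising in the mutant only. They were the ribosomal protein gene RpL36A (−0.81), RNASEK (−0.98), the mitochondrially encoded genes mt:ND3 (−0.85), a subunit of complex I, and mt:ATPase8 (−0.72), a subunit of ATP synthase, and CG15478 (−0.74) and CG18135 (−1.21). RpL36A had 310 and 238 CPM in the mutant with upd, 165 and 167 CPM in the mutant with control media, 183 and 141 CPM in S2R+ cells with upd, and 206 and 144 CPM in S2R+ cells with control media. Its mutant conditions stood clearly apart, and its S2R+ libraries followed the replicate number. RNASEK had 156 and 81.6 CPM in the mutant with upd, 62.3 and 50.8 CPM in the mutant with control media, 104 and 62.4 CPM in S2R+ cells with upd, and 94.2 and 65.7 CPM in S2R+ cells with control media.

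All 13 tested mitochondrially encoded genes had a difference below 0, beside 4024 of all 8126 genes tested. Their median difference was −0.49 log2, and 2 were called below 0, against 0.123% of all genes tested. Neither of these 2 passed with DESeq2 (adjusted p = 0.811 for mt:ND3 and 0.0652 for mt:ATPase8) or edgeR's robust prior (0.147 and 0.0515). In the mutant 11 of 13 rose, against 3.85% of all genes tested, and in S2R+ cells 1 did, against 1.22%. Their median response was 0.83 and 0.43 log2 in mutant pairs 1 and 2, and 0.32 and −0.04 log2 in S2R+ pairs 1 and 2. Of the cytosolic ribosomal proteins, 79 of 88 had a difference below 0, with a median of −0.19 log2. Among them 1 was called below 0, and 40 rose in the mutant against 1 in S2R+ cells, beside the same shares of all genes. Their pair medians were 0.50 and 0.17 log2 in mutant pairs 1 and 2, and 0.06 and 0.15 log2 in S2R+ pairs 1 and 2, so the second pairs of the lines were close. Mitochondrial transcripts took 19.1% and 17.0% of counts in the mutant with upd, 15.0% and 15.1% in the mutant with control media, 22.1% and 12.8% in S2R+ cells with upd, and 20.2% and 14.0% in S2R+ cells with control media. The share varied more by replicate number in S2R+ cells than by ligand in the mutant. The part that this composition has in the differences was not tested. With quantile normalization the median difference was −0.38 for the mitochondrial genes and −0.14 for the ribosomal proteins. Without either mutant library of replicate 1 the medians were −0.23 and between −0.07 and −0.06, and without either of replicate 2 they were −0.75 and −0.38. Without 1 S2R+ library the mitochondrial median ran from −0.65 (replicate 1) to −0.33 (replicate 2) and the ribosomal one from −0.16 to −0.26.

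**Figure D4:**
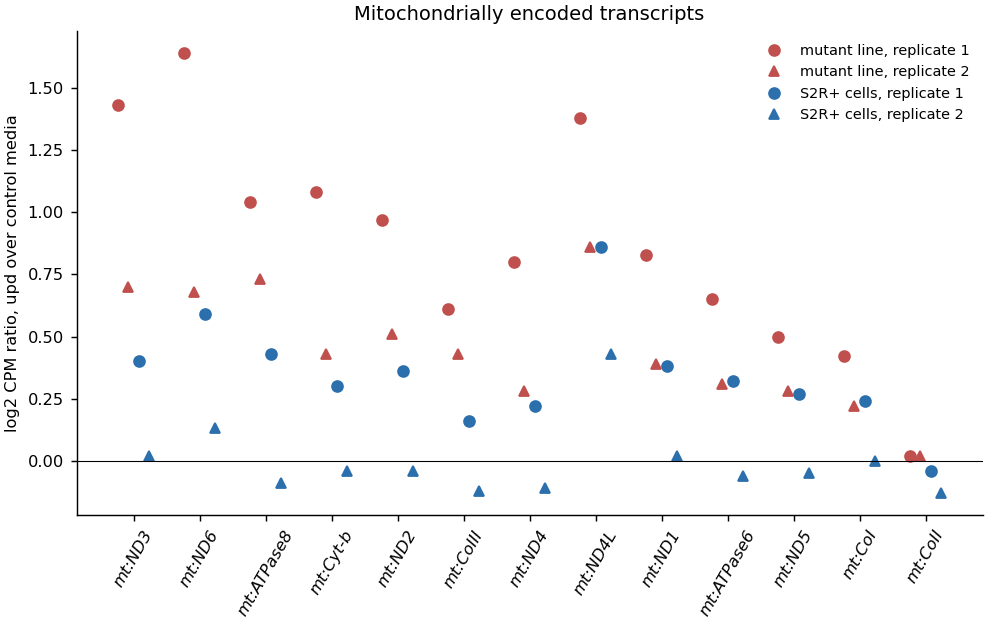
Log2 ratio of upd over control media for libraries of the same number (y axis) in the mitochondrially encoded genes (x axis), with the mutant line in red and S2R+ cells in blue, circles for replicate 1 and triangles for replicate 2. In all 13 genes mutant replicate 1 is the highest and S2R+ replicate 2 the lowest, with medians of 0.83 and −0.04.

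Responses called in both lines without a called difference numbered 27, of which 26 rose and 1 fell. Their median response was 0.52 log2 in the mutant and 0.56 log2 in S2R+ cells, and the median difference was 0.04 log2. Genes with a called difference are left out of this set by definition, which favours similar medians, so these values are descriptions only. For 26 of the 27 the 95% interval of the difference lay within 1 log2 unit of 0, so differences as large as those of Socs36E or Vrp1 lie outside those intervals. For 6 of the 27 the interval excluded 0 before adjustment for multiple tests. A call missed for the difference does not show that the lines responded alike.

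chn, a zinc finger transcription factor (2R:15115236-15144783), had nearly equal ratios in all pairs. It held 69.1 and 50.3 CPM in the mutant with upd, 40.1 and 30.1 CPM in the mutant with control media, 74.1 and 45.5 CPM in S2R+ cells with upd, and 42.9 and 28.2 CPM in S2R+ cells with control media. The pair ratios were 0.78 and 0.74 log2 in the mutant and 0.79 and 0.69 log2 in S2R+ cells. The fitted response was 0.76 ± 0.11 log2 in the mutant (adjusted p = 0.000487) and 0.74 ± 0.12 log2 in S2R+ cells (adjusted p = 0.000639), with a difference of −0.03 log2 (−0.37 to 0.31). Other close pairs were SCaMC, a mitochondrial carrier, at 0.60 log2 in the mutant and 0.58 log2 in S2R+ cells, and mam, the Notch coactivator Mastermind, at 0.52 log2 in the mutant and 0.63 log2 in S2R+ cells. Lsm11, a subunit of the U7 complex that processes histone transcripts, fell by 0.57 log2 in the mutant and by 0.66 log2 in S2R+ cells, and was the 1 gene lowered in both.

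Pdk1, the kinase that activates Akt and S6k, rose by 0.45 log2 in the mutant and 0.76 log2 in S2R+ cells (difference 0.31, interval 0.02 to 0.60). S6k rose by 0.30 log2 in the mutant and 0.51 log2 in S2R+ cells. Myc, a growth-promoting transcription factor (X:3373159-3391697), had 1180 and 868 CPM in the mutant with upd, 577 and 512 CPM in the mutant with control media, 1440 and 644 CPM in S2R+ cells with upd, and 1040 and 406 CPM in S2R+ cells with control media. Its conditions did not overlap in the mutant, while in S2R+ cells replicate 1 with control media was above replicate 2 with upd. Myc rose by 0.90 ± 0.10 log2 in the mutant and 0.57 ± 0.10 log2 in S2R+ cells, a difference of −0.33 log2 (−0.61 to −0.06, adjusted p = 0.428). The insulin antagonist ImpL2 rose by 0.83 log2 in the mutant and 0.55 log2 in S2R+ cells, the TOR inhibitor scyl by 0.80 log2 in the mutant and 0.57 log2 in S2R+ cells, and the circadian repressor cwo by 0.74 log2 in the mutant and 0.48 log2 in S2R+ cells, with no called difference.

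lama, a gene expressed in undifferentiated precursors of glia, neurons and blood cells (3L:5343619-5355923), rose in both lines. It had 92.9 and 94.4 CPM in the mutant with upd, 64.8 and 73.3 CPM in the mutant with control media, 153 and 188 CPM in S2R+ cells with upd, and 90.4 and 88.5 CPM in S2R+ cells with control media. No upd library overlapped a control library of the same line. The change of lama was 0.44 ± 0.10 log2 in the mutant (adjusted p = 0.0146) and 0.93 ± 0.10 log2 in S2R+ cells (adjusted p = 6.77e-06), and the difference of 0.49 log2 (0.19 to 0.79) had an adjusted p of 0.21. pirk, an inhibitor of the Imd immune pathway (0.52 log2 in the mutant and 1.02 log2 in S2R+ cells), and hry, the repressor Hairy (0.38 log2 in the mutant and 0.75 log2 in S2R+ cells), had differences of 0.50 and 0.37 log2 that did not pass either. None of the 27 kept both calls in each of the 8 fits that left out 1 library.

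For the 62 genes called in S2R+ cells alone without a called difference, the data place the response neither with the first set nor with the second. The median response was 0.16 log2 in the mutant and 0.55 log2 in S2R+ cells, a description, since calls in S2R+ cells alone define the set. For 35 of the 62 the interval of the difference excluded 0 before adjustment. The nearest to the threshold were Jra, the fly Jun (difference 0.52 log2, adjusted p = 0.0826), Drat (0.52, 0.0826), spri (0.54, 0.0874), Sema1b, a semaphorin (0.56, 0.0938), and blow, a myoblast fusion gene (0.61, 0.0943). Jra had 254 and 335 CPM in the mutant with upd, 254 and 308 CPM in the mutant with control media, 631 and 535 CPM in S2R+ cells with upd, and 439 and 344 CPM in S2R+ cells with control media. Its mutant response was 0.06 ± 0.09 log2, and its S2R+ response was 0.58 ± 0.09 log2. The opposite direction held stg, the Cdc25 phosphatase that drives entry into mitosis, at 0.14 log2 in the mutant and −0.42 log2 in S2R+ cells (difference −0.55, adjusted p = 0.131). Further along were genes with close fitted values, such as the caspase inhibitor Diap1 (0.20 log2 in the mutant and 0.41 log2 in S2R+ cells) and the glycolytic enzyme Hex-A (0.30 log2 in the mutant and 0.43 log2 in S2R+ cells).

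The list of JAK/STAT targets from other fly tissues had 18 of its 25 genes tested. Of these, 1 had a called difference, Socs36E, against 0.406% of all genes tested, and the median difference was 0.04. In the mutant 4 of 18 rose, namely Socs36E, lama, Tep2 and Myc, against 3.85% of all genes tested. In S2R+ cells these 4 and Mmp1, Pvf3 and Diap1 rose, against 1.22% of all genes tested. Tep2, a thioester-containing immune protein (2L:7693727-7701601), had 1.11 and 5.6 CPM in the mutant with upd, 0.574 and 2.62 CPM in the mutant with control media, 68.9 and 108 CPM in S2R+ cells with upd, and 54.5 and 65.2 CPM in S2R+ cells with control media. It rose by 1.06 ± 0.25 log2 in the mutant from a level 0.0267 times that of S2R+ cells, and by 0.55 ± 0.12 log2 in S2R+ cells (difference −0.51, interval −1.09 to 0.07). Mmp1, a matrix metalloprotease, gave 0.17 log2 in the mutant and 0.70 log2 in S2R+ cells, and Pvf3, a ligand of the receptor Pvr, gave 0.49 log2 in the mutant and 1.13 log2 in S2R+ cells. Their differences of 0.54 and 0.65 log2 did not pass (adjusted p = 0.495 and 0.692). The 7 that could not be tested, Tep1, TotA, TotC, TotM, TotX, Drsl5 and Sox100B, were at or below 0.506 CPM in every library.

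Among pathway components 15 of 16 were tested and Socs36E alone had a called difference, against 0.406% of all genes tested. The receptor dome had a difference of 0.27 log2 (−0.05 to 0.60) and the kinase hop one of 0.17 log2 (−0.34 to 0.68). Socs16D, a second SOCS gene, rose in the mutant by 0.35 ± 0.09 log2 (adjusted p = 0.0276) and gave 0.23 ± 0.09 log2 in S2R+ cells. Socs44A gave −0.09 log2 in the mutant and −0.10 log2 in S2R+ cells. The ligands upd2 and upd3 were between 0.239 and 8.13 CPM in mutant libraries and between 1.77 and 27.4 CPM in S2R+ libraries, and their differences of 0.59 and −0.22 log2 did not pass.

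**Figure D5:**
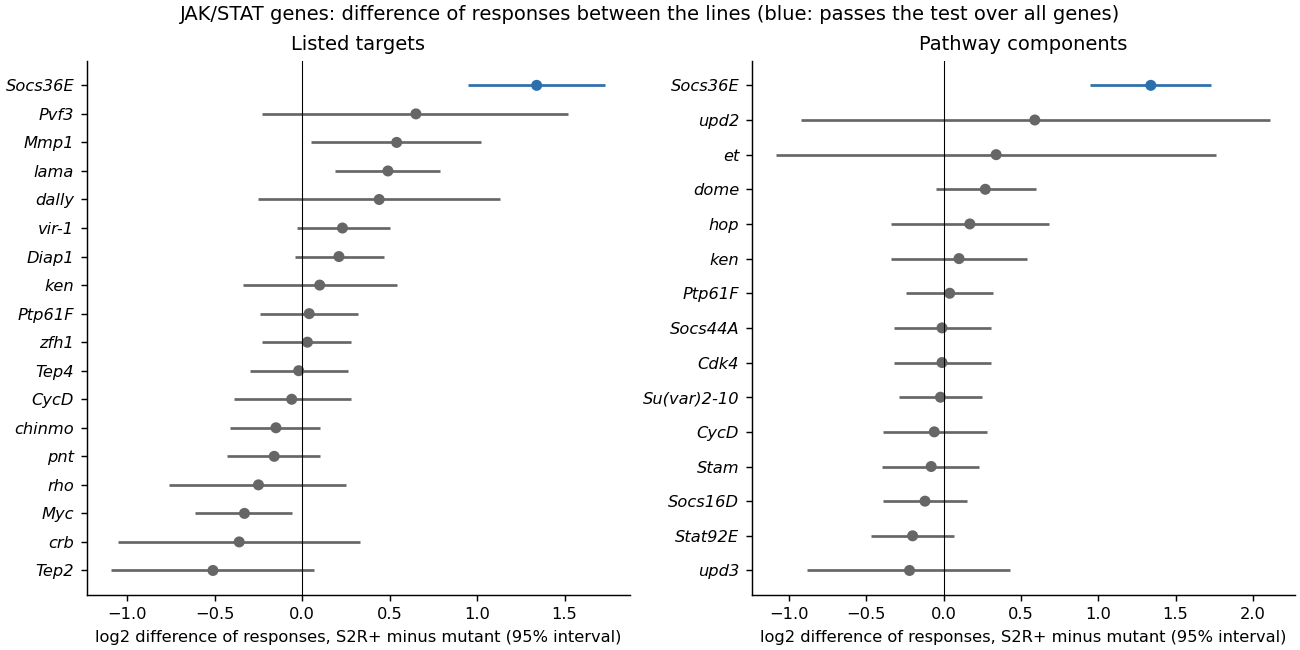
Difference of the log2 responses, S2R+ cells minus the mutant line, with 95% intervals (x axis) for 18 listed targets and 15 pathway components (y axis). Socs36E, in both lists, is drawn in blue as the 1 gene that passed the test over all genes, at 1.34, and most other intervals include 0.

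Other lists held few called differences. The matrix and integrin list had 26 genes tested, 0 called by edgeR, a median difference of 0.21 log2 and 20 of 26 above 0. Its median was 0.10 without either mutant library of replicate 2. The 17 listed JNK pathway genes had 1 called (cher), against 0.406% of all genes tested, and a median of 0.02. Of the 17, 1 rose in the mutant, against 3.85% of all genes, and 4 in S2R+ cells, against 1.22%. The ERK early genes (12 tested), heat shock genes (14), Toll and Imd genes (13), cell cycle genes (24) and ribosome biogenesis genes (20) each had 0 called differences by edgeR, with medians of 0.04, 0.13, 0.21, −0.06 and 0.00. With 1 library left out the heat shock median ranged from 0.05 (without mutant replicate 1, control media) to 0.30 (without either mutant library of replicate 2), and the Toll and Imd median was 0.11 without either mutant library of replicate 1. Over all genes tested 744 had an unadjusted p under 0.05 for the difference, which is 9.16%.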

How the data were processed

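The deposited tables hold, per library, a whole-number count for each of 13932 FlyBase genes, made by the authors; the RPKM column was not used. Per the submitters' processing notes the tools include Trimmomatic 0.36 and STAR 2.5.2b with the dm6 build; the counter, annotation release and strand setting are not given in these sources, so overlapping and antisense genes cannot be told apart. Per the labels' protocols, Trizol was used for extraction and a Wafergen PrepX kit for poly-A selected libraries. Symbols and coordinates came from an Ensembl dm6 annotation, in which 13852 identifiers had an entry and 80 had none.

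Counts of all 8 libraries were fitted in 1 model with edgeR 4.0.16 in R 4.3.3, using TMM scaling and the filterByExpr filter, with 6 terms: 4 group means and a replicate term within each line. The contrast was (S2R+ upd minus S2R+ control) minus (mutant upd minus mutant control). The quasi-likelihood test was two-sided, with Benjamini and Hochberg adjustment over 8126 genes and a threshold of 0.05. "Called" means past that threshold. Responses of same-number pairs are log2 ratios of CPM with a prior count of 2. The code was tested on simulated data. Total counts span 8285533 to 30352948, and 3 counts correspond to between 0.0961 and 0.379 CPM, a floor that covers counting error only.

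The members and lists were chosen with earlier results of these data known. The naming rule took up to 12 genes per sign of the difference by lowest p (adjusted p under 0.05, non-overlapping pairs, mean of at least 5 CPM), up to 10 genes called in both lines by size of the S2R+ response, up to 8 called in the mutant alone, genes called in opposite directions, JAK/STAT list members and up to 4 called members of each other list. The other called genes, and those described as called in both lines or in S2R+ cells alone outside these limits, were named after their values were seen. Alternatives were no replicate term, 1 shared replicate term, DESeq2 1.42.0, limma 3.58.1 on log2 CPM, median-of-ratios, upper-quartile and quantile scaling, other filters, a robust prior and leaving out each library.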

Additional observations from a re-analysis of the deposited data

Results flagged for a closer look

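The responses of the lines to upd differed, by a test of the difference itself, for 23 genes above 0 and 10 genes below 0. In log2 units, S2R+ cells minus the mutant, the values above 0 were 3.35 for CG15673, 2.23 for CG15097, 1.44 for Vrp1, 1.34 for Socs36E, 1.09 for CG32700, 1.06 for mgl, 0.99 for Pino, 0.98 for CG6204, 0.95 for CG32512, 0.88 for Ptpmeg2, 0.84 for cher, 0.81 for loco, 0.80 for ush and for ex, 0.79 for Swip-1, 0.76 for path, 0.75 for foi, 0.69 for coil, 0.68 for CD98hc, 0.63 for GABPI, 0.62 for promL, 0.61 for Efa6 and 0.60 for Nup358. The values below 0 were −1.21 for CG18135, −1.05 for fray, −0.98 for RNASEK, −0.96 for Sesn, −0.95 for TP53INP, −0.88 for PRAS40, −0.85 for mt:ND3, −0.81 for RpL36A, −0.74 for CG15478 and −0.72 for mt:ATPase8. Each group has 2 libraries, too few to test whether a single library stands apart.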

How the results depend on the processing

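The replicate term decided the calls. With no replicate block, edgeR called 0 genes above and 0 below for the difference, 0 responses in the mutant and 0 in S2R+ cells, with 88, 266 and 148 genes at an unadjusted p under 0.05, so the 3 classes below also held 0. A block shared by the lines gave 0 and 0 differences, 0 mutant responses and 1 S2R+ response. Libraries of the same number deviated together within a line (correlation 0.514 in the mutant and 0.485 in S2R+ cells) but not between the lines (0.00192), and with 2 numbers the pairing is a hint from the data. limma called 12 and 4 differences, DESeq2 18 and 4, quantile normalization 7 and 4, the robust prior 16 and 5, the filter at 5 CPM 13 and 5, and no filter 54 and 56. Mutant responses numbered 209 with DESeq2, 282 with limma, 191 after quantile normalization and 727 with no filter, which gave 167 in S2R+ cells. S2R+ responses with a called difference numbered 13 with limma, 7 after quantile normalization, 14 at 5 CPM and 36 with no filter. Responses called in both lines numbered 45 with no filter, and mutant responses with a called difference numbered 4 with DESeq2, 3 with limma, 3 after quantile normalization, 4 at 5 CPM, 4 with the robust prior and 61 with no filter. Leaving out 1 library gave between 5 and 277 differences above 0, between 3 and 308 below, between 57 and 1408 mutant responses and between 22 and 348 S2R+ responses. The classes, in the order just given, ranged from 4 to 88, from 8 to 90 and from 4 to 459. The high counts of differences came without a mutant library of replicate 2 (255 and 282 differences without the control library, 277 and 308 without the upd library) and the low ones without an S2R+ library of replicate 2 (6 and 3, and 5 and 3). Of the 33 genes, 7 and 6 stayed called without those S2R+ libraries, 24 without either S2R+ library of replicate 1, and 26 and 28 without the mutant control and upd libraries of replicate 1. In all 8 such fits 6 stayed called, of which Vrp1, mgl, fray and RpL36A were called under every alternative with the replicate terms, while Socs36E was not with DESeq2 and the robust prior, nor CG15097 with these and quantile normalization. None of the 593 recomputed differences of the 33 changed sign. For the fits without 1 library this was all but fixed beforehand, because the same-number pairs of the lines did not overlap. Each such fit keeps 1 informative pair in the line concerned and takes its residual spread from the other line. The counts of such fits therefore do not single out a library. Counts of a few reads, as for CG15673 and the untested Turandot genes, limit what the shallow S2R+ libraries of replicate 1 can show.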

Other observations

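Among the genes whose response was larger in S2R+ cells, 7 lay near another such gene. mgl, CG32700 and Ptpmeg2 lay within X:9358496-9659145, with gaps of 2.7 and 75.5 kb. The other 12 tested genes of this interval included Hex-A, which rose in S2R+ cells (0.43 ± 0.09 log2, adjusted p = 0.0122) with a difference of 0.14 log2, and the abundant gene l(1)G0320, with a difference of 0.05 log2. ex and ush lay 27.5 kb apart in 2L:431227-540560, and the 6 other tested genes there had differences between −0.43 and 0.21 log2. Those 6 included crq, a phagocytic receptor of blood cells (0.13 log2), and MED15, a Mediator subunit (0.17 log2). Efa6 and loco lay 11.1 kb apart in 3R:22587755-22639387, with 5 other tested genes between them, of which 2 had a difference above 0. Whether such clustering exceeds that of other genes was not tested.

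Over 6454 genes averaging at least 5 CPM, the SD of the log2 ratio of upd over control media was 0.369 and 0.238 in mutant pairs 1 and 2, and 0.277 and 0.229 in S2R+ pairs 1 and 2. Mutant pair 1 moved 109 of these genes by at least 2-fold, mutant pair 2 moved 24, and the S2R+ pairs moved 45 and 29. The mean response of the mutant and that of S2R+ cells, which share no library, correlated across genes with r = 0.331 and rho = 0.36, and the 2 pairs of a line with r = 0.394 and rho = 0.441 in the mutant and r = 0.371 and rho = 0.318 in S2R+ cells. The values between the lines rest on means of 2 pairs and those within a line on single pairs. They are therefore unlike measures and cannot be ranked. Genes are not independent replicates, so these are descriptions. Of the 313 genes raised in the mutant and the 99 raised in S2R+ cells, 28 were shared. That is 8.95% of the mutant's genes, beside 1.22% of all genes tested that rose in S2R+ cells. It is 28.3% of the genes of S2R+ cells, beside 3.85% of all genes tested that rose in the mutant.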
